A study of Homo sapiens with 30 samples.

Results

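Solute carrier (SLC) genes encode the largest group of human membrane transporters, and 134 of them were expressed in BEAS-2B, an established cell line of human bronchial epithelium. A gene was included if its name had the form SLC, family number, letter, member number, and if it reached 1 FPKM in 3 or more of the 30 libraries. FPKM, fragments per kilobase of transcript scaled to the mapped fragments of the library, is a level per length, so levels of different genes can be set side by side. Of 308 SLC names in the files 134 met this rule and 174 did not, of which 80 were listed at 0 in every library. SLC2A1 and SLC30A1 were left out by the rule. No gene was included at exactly 3 libraries, and 7 names reached 1 FPKM in 1 or 2 libraries. The lowest included genes were SLC27A3, which reached 1 FPKM in 5 libraries, SLC16A6 and SLC24A5, which did so in 6 each, and SLC16A14, in 10. The whole table held 22538 gene names, of which 8531 passed the same expression rule and were tested.

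Cells were exposed on a rocker for 30 min, and 3 wells per group gave RNA after 24 h and 3 others after 2 h. Tobacco shisha was heated electronically (tobacco shisha on the electronic heater) or over charcoal (tobacco shisha on charcoal). The other exposures were an herbal, tobacco-free shisha over charcoal (herbal shisha on charcoal) and charcoal burned with no shisha (charcoal alone), 4 exposures in all. Internal control wells were taken at both times. The sources used here do not say how control wells were treated, and each exposure was given at the highest concentration without LDH release at 24 h, so amounts of smoke need not match between exposures. The 10 groups therefore share the cell line, and exposures differ in heat source and in shisha. It is not stated whether the 3 wells of a group were separate cultures, and p-values then measure only the spread between wells, which may be technical.

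SLC proteins move amino acids, sugars, nucleosides, vitamins, metal ions, inorganic ions and acids across the plasma membrane and the membranes of organelles. Many work by exchange or by coupling to an ion gradient, and some need a partner protein to reach the membrane. In airway epithelium they are best known for cystine and glutamine uptake, which feed glutathione synthesis, for lactate export, and for the control of zinc, iron and intracellular pH. Numbered families group proteins of related sequence. SLC25, for example, holds mainly carriers of the inner mitochondrial membrane, and all its members are counted here as mitochondrial carriers.

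The files hold FPKM and no counts, and the true depth is unknown. The sums of FPKM ran from 199985 to 220259 per library, and 7598 to 7944 genes reached 1 FPKM. Relative depth estimated from the steps between low values ran from 0.751 to 1.57, a 2.09-fold range, although only 22.8% to 33.1% of low-value ratios lay on such steps. Among the epithelial markers KRT8 lay between 466 and 728 FPKM, KRT18 between 208 and 442 FPKM and KRT19 between 19.8 and 65.7 FPKM. The epithelial markers KRT5, EPCAM and CDH1 did not reach the expression rule. Of the 5 mesenchymal markers all were expressed, VIM between 596 and 963 FPKM. PTPRC and CD3E of the immune markers, PECAM1 and HBB were at or near 0, while CD14 lay between 3.45 and 22.9 FPKM and CD68 between 6.91 and 18 FPKM.

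The promoters of 4 SLC genes that recur in the results are shown first: SLC3A2 and SLC25A25, whose largest rises followed tobacco shisha on the electronic heater, SLC7A5, which fell there, and SLC1A5, the glutamine transporter. Each run is the 250 bases before an annotated start, 5′ to 3′ on the gene's strand, from RefSeq on GRCh38.p14. For SLC1A5 this is the start of the short transcript listed in the files, which lies inside the gene, so the run shown is within the gene and not before its outermost start. Capitals mark matches on either strand to 1 motif: GCGTG, the xenobiotic response element, in SLC3A2 (chr11:62855859-62856108, plus strand) and SLC25A25 (chr9:128067982-128068231, plus strand), ACGTG, the hypoxia response element, in SLC7A5 (chr16:87869508-87869757, minus strand), and TGATGNAA, the C/EBP-ATF response element, in SLC1A5 (chr19:46784815-46785064, minus strand).
SLC3A2: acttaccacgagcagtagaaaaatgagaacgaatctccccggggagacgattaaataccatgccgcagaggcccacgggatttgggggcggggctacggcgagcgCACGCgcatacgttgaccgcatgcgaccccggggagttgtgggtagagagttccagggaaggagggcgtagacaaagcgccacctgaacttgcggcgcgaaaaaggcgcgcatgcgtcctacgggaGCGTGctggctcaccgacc
SLC25A25: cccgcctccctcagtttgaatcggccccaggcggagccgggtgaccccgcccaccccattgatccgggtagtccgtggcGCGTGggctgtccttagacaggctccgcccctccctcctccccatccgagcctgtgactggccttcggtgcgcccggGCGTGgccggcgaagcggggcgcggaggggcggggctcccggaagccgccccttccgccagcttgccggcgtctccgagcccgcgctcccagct
SLC7A5: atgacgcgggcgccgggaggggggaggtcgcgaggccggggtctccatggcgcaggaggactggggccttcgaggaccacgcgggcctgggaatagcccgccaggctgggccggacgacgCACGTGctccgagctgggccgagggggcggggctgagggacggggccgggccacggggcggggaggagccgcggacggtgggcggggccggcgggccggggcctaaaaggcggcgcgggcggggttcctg
SLC1A5: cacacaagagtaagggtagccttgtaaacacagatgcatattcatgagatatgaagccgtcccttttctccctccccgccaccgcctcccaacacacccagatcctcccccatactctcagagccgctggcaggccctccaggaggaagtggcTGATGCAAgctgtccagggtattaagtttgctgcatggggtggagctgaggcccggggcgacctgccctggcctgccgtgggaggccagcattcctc
SLC3A2 and SLC25A25 each had 2 matches, SLC7A5 had 2 that overlap each other as a palindrome, and SLC1A5 had 1. GCGTG was found in 62.6% of the 107 SLC windows of 300 bases and in 36.5% of all 35116 such windows, ACGTG in 26.2% and 21.4%, and TGATGNAA in 5.61% and 3.62%. The other motifs searched were the antioxidant response element core TGACNNNGC (16.8% of SLC windows and 13.3% of all), the metal response element TGCNCNC (64.5% and 55.9%) and the cAMP response element TGACGTCA (2.80% and 1.85%). Only 1 picked motif is marked per gene, and the 300-base windows of these genes matched others too. The metal response element matched in SLC3A2, SLC25A25 and SLC7A5, and the antioxidant core in SLC25A25 and SLC7A5. GCGTG also matched in SLC7A5 and SLC1A5. The SLC windows are 1 per expressed gene, while the full set also holds genes not expressed here and can hold several windows per gene. The 2 shares are therefore not a like comparison, and no share over expressed genes was computed. Several motifs can cover the same bases, and a match is only a description of the letters.

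The expressed SLC genes belonged to 40 families and spanned a wide range of levels. The mean over all libraries was above 100 FPKM for 8 genes, from 10 to 100 for 37, from 1 to 10 for 83 and below 1 for 6, with a median of 5.56 FPKM. The highest was SLC25A3, the mitochondrial phosphate carrier, at 318 FPKM, followed by SLC38A2, a sodium-coupled neutral amino acid transporter, at 221 FPKM. SLC16A3, a lactate exporter, stood at 204 FPKM, SLC7A5, the large neutral amino acid exchanger, at 192 FPKM, and SLC3A2, the heavy chain that pairs with SLC7A5 and SLC7A11, at 148 FPKM. SLC29A1, an equilibrative nucleoside transporter, SLC25A6, an ADP/ATP carrier, and SLC25A1, the mitochondrial citrate carrier, had means of 118, 117 and 108 FPKM. Family SLC25 supplied 27 of its 39 names and SLC35, largely nucleotide sugar carriers of the endoplasmic reticulum and Golgi, 12 of 20. By class, mitochondrial carriers had a median mean level of 10.6 FPKM and nucleotide sugar carriers 9.59 FPKM, against 5.60 FPKM for the 20 amino acid transporters and 3.08 FPKM for the 20 transporters of ions and pH.

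At 24 h the number of SLC genes that passed the test against control wells was 93 after tobacco shisha on the electronic heater, 60 after tobacco shisha on charcoal, 44 after herbal shisha on charcoal and 25 after charcoal alone. The test was limma on log2(FPKM + 1) with Benjamini-Hochberg adjustment over all 8531 genes, and a gene is said to have risen or fallen only where its adjusted p was below 0.05. A log2 change here is a difference of mean log2(FPKM + 1), which understates the change of low genes. After the electronic heater 50 SLC genes rose and 43 fell, which is 69.4% of the members; of all genes tested 63.8% passed, 34.3% higher and 29.5% lower. After tobacco shisha on charcoal 46 rose and 14 fell (44.8% of members), where 44.5% of all genes passed, 25.9% higher and 18.6% lower. After herbal shisha on charcoal 34 rose and 10 fell (32.8% of members), where 26.8% of all genes passed, 16.5% higher and 10.4% lower. After charcoal alone 19 rose and 6 fell (18.7% of members), where 9.87% of all genes passed, 6.05% higher and 3.82% lower. The median log2 change of the members at 24 h was 0.04 after the electronic heater, 0.06 after tobacco shisha on charcoal, 0.06 after herbal shisha and 0.02 after charcoal alone, beside 0.03, 0.04, 0.03 and 0.02 for all genes. With median-of-ratios scaling the rises and falls were 46 and 45 SLC genes after the electronic heater, 37 and 16 after tobacco shisha on charcoal, 23 and 11 after herbal shisha and 17 and 8 after charcoal alone. Over all genes they were then 2692 and 2725, 1813 and 1870, 999 and 1087, and 416 and 434 in that order, so falls outnumbered rises over all genes under that scaling and not without it. Cells were not separated, so fewer cells of a kind and less RNA per cell cannot be told apart. The call held under every alternative processing and every left-out well for 72 of the 93 genes, 41 of the 60, 21 of the 44 and 12 of the 25; the herbal count fell to 27 without herbal shisha on charcoal replicate 3 and to 28 without control 24 h replicate 2.

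**Figure D1:**
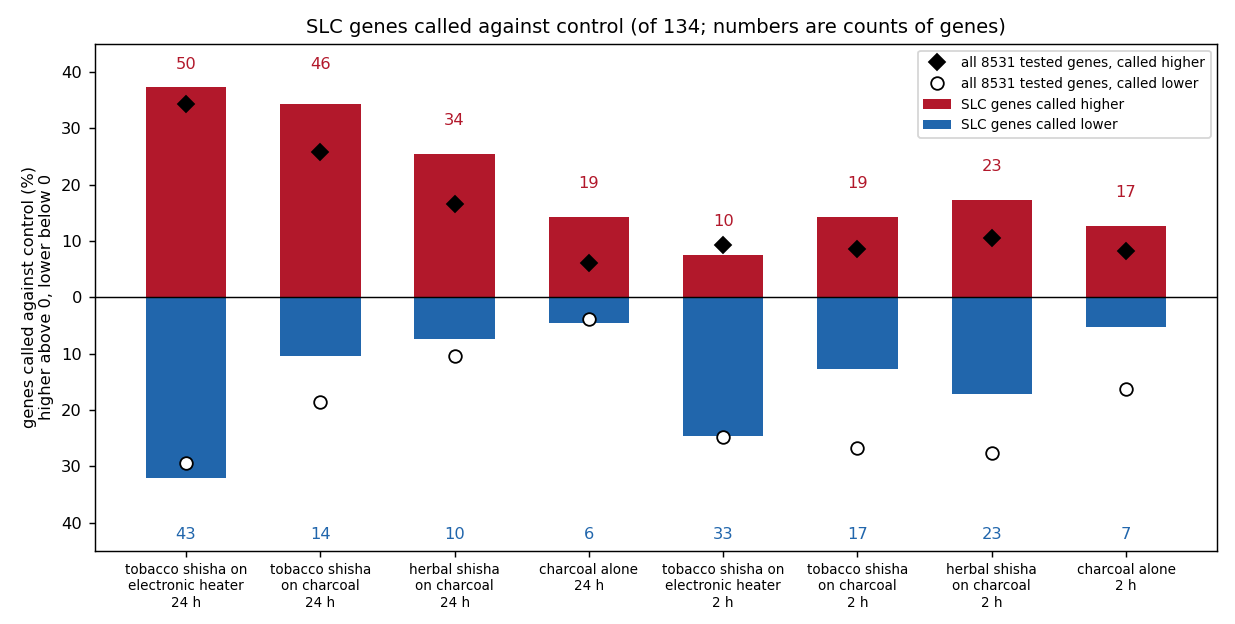
Share of the 134 SLC genes with adjusted p below 0.05 against control wells (bars, in percent, rises above 0 and falls below it, with counts printed), and the same share of all 8531 genes tested (diamonds for rises, circles for falls). The electronic heater at 24 h has the longest bars, 50 genes up and 43 down, and at 2 h it has 10 up and 33 down.

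At 2 h the counts were closer to each other: 43 SLC genes passed after tobacco shisha on the electronic heater, 36 after tobacco shisha on charcoal, 46 after herbal shisha on charcoal and 24 after charcoal alone. After the electronic heater 10 rose and 33 fell (32.1% of members), where 34% of all genes passed, 9.27% higher and 24.8% lower. After tobacco shisha on charcoal 19 rose and 17 fell (26.9% of members), where 35.2% of all genes passed, 8.5% higher and 26.7% lower. After herbal shisha 23 rose and 23 fell (34.3% of members), where 38.2% passed, 10.6% higher and 27.7% lower. After charcoal alone 17 rose and 7 fell (17.9% of members), where 24.4% passed, 8.16% higher and 16.2% lower. These splits depended on how libraries were scaled. With median-of-ratios scaling the rises and falls were 17 and 26 after the electronic heater, 32 and 9 after tobacco shisha on charcoal, 30 and 12 after herbal shisha, and 20 and 3 after charcoal alone. Over all genes they were then 1434 and 1679, 1467 and 1508, 1627 and 1623, and 956 and 688 in that order. Relative depth moved with these comparisons: it averaged 0.885 to 1.05 in the exposed groups at 2 h, against 1.31 in the 2 h control wells, and its part in the counts was not tested. Median log2 changes of the members were -0.03 after the electronic heater, -0.02 after tobacco shisha on charcoal, -0.03 after herbal shisha and -0.04 after charcoal alone, beside -0.04, -0.08, -0.07 and -0.08 for all genes.

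Among the 20 amino acid transporters, 9 rose and 8 fell 24 h after tobacco shisha on the electronic heater, a comparison in which 34.3% of all genes rose and 29.5% fell. The heavy chain gene SLC3A2 had 374, 241 and 420.3 FPKM after tobacco shisha on the electronic heater, against 97.8, 99.2 and 89.3 FPKM in the control wells. Every exposed well was above every control well, and the exposed wells were spread widely, with a log2 change of 1.81 ± 0.13 (SE; adjusted p = 9.38e-11). SLC7A5, which encodes the exchanger that SLC3A2 carries to the membrane, moved the other way, with 102, 118 and 95.8 FPKM after tobacco shisha on the electronic heater, against 199, 201 and 169 FPKM in the control wells. The groups did not overlap, and the log2 change was -0.85 ± 0.10 (SE; adjusted p = 6.53e-08). Its fall was -0.42 on the log2 scale after tobacco shisha on charcoal and -0.31 after herbal shisha, where wells overlapped and 4 of the alternatives lost the call (adjusted p up to 0.0887, without control 24 h replicate 2). SLC7A11, the cystine/glutamate antiporter and the other partner of SLC3A2, stayed between 1.57 and 1.76 FPKM after the electronic heater, against 1.72 to 1.95 FPKM in control wells, a log2 change of -0.09 (adjusted p = 0.362). It fell after charcoal alone, with 1.24, 0.944 and 1.17 FPKM after charcoal alone, against 1.95, 1.84 and 1.72 FPKM in the control wells (log2 change -0.42 ± 0.09 (SE; adjusted p = 0.00251)).

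The glutamine transporter SLC1A5 and the alanine, serine and cysteine transporter SLC1A4, both of family SLC1, moved in opposite directions after the electronic heater. SLC1A5 had 109, 99.3 and 102 FPKM after tobacco shisha on the electronic heater, against 68.9, 70.04 and 68.1 FPKM in the control wells, a log2 change of 0.58 ± 0.07 (SE; adjusted p = 1.11e-07). SLC1A4 had 9.01, 9.33 and 8.24 FPKM after tobacco shisha on the electronic heater, against 18.04, 18.5 and 16.9 FPKM in the control wells, and fell by 0.93 on the log2 scale (adjusted p = 1.66e-10). Neither gene's groups overlapped. SLC1A4 also fell after tobacco shisha on charcoal (-0.49) and herbal shisha (-0.28), and by 0.23 after charcoal alone, a call that 6 alternatives lost (adjusted p up to 0.139, without control 24 h replicate 2). SLC1A5 changed by 0.05 (adjusted p = 0.559) after tobacco shisha on charcoal and -0.02 (adjusted p = 0.895) after herbal shisha. Its fall after charcoal alone, -0.21 with an adjusted p of 0.0498, was lost without any 1 of the 6 wells (adjusted p 0.0692 to 0.194), under the replicate block (0.0638), with a pseudocount of 0.1 (0.0518), with no filter (0.0741) and with summed rows (0.0502). The creatine transporter SLC6A8 had 27.97, 22.4 and 25.3 FPKM after tobacco shisha on the electronic heater, against 9.1, 9.61 and 10.5 FPKM in the control wells. These values lay far apart, with a log2 change of 1.28 ± 0.08 (SE; adjusted p = 5.91e-12). SLC38A5, a transporter of glutamine and histidine, rose after all 3 shisha exposures, with log2 changes of 1.25 on the electronic heater, 1.25 for tobacco on charcoal and 0.86 for herbal shisha, beside 0.06 (adjusted p = 0.87) after charcoal alone.

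After charcoal alone at 24 h 3 of the 4 largest rises were in amino acid transporters, and 6 of the 20 genes of this class rose and 4 fell, where 6.05% of all genes rose and 3.82% fell. SLC38A4, a sodium-coupled neutral amino acid transporter, had 5.1, 5.25 and 6.34 FPKM after charcoal alone, against 1.67, 1.73 and 1.38 FPKM in the control wells (log2 change 1.34 ± 0.12 (SE; adjusted p = 2.64e-07)). The taurine transporter SLC6A6 had 19.2, 19.4 and 19.9 FPKM after charcoal alone, against 10.7, 11.3 and 10.2 FPKM in the control wells (log2 change 0.80 ± 0.07 (SE; adjusted p = 2.64e-07)). SLC38A2 had 206, 208 and 239.8 FPKM after charcoal alone, against 139, 134 and 127 FPKM in the control wells (log2 change 0.70 ± 0.12 (SE; adjusted p = 0.000651)). In each of the 3 the charcoal wells stood above every control well. SLC38A4 fell by 0.73 after the electronic heater (0.606, 0.521 and 0.563 FPKM), and changed by -0.23 (adjusted p = 0.13) after tobacco shisha on charcoal and -0.09 (adjusted p = 0.628) after herbal shisha. SLC38A2 rose after the electronic heater too (0.54) and after tobacco shisha on charcoal (0.36), where the call was lost without control 24 h replicate 3 (adjusted p 0.0677) and without tobacco shisha on charcoal replicate 1 (0.119). The glycine transporter SLC6A9 rose by 0.44 after charcoal alone, a call lost without charcoal alone replicate 3 (adjusted p 0.0693), and fell by 0.40 after the electronic heater.

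At 2 h SLC3A2 rose after every exposure. It had 175, 162 and 129.6 FPKM after tobacco shisha on the electronic heater, 174, 175 and 162 FPKM after tobacco shisha on charcoal, 192, 200.1 and 189.9 FPKM after herbal shisha and 156, 154 and 151 FPKM after charcoal alone, against 98.1, 99.2 and 93.1 FPKM in control wells. No exposed well overlapped the control wells, and the log2 changes were 0.67, 0.81, 1.00 and 0.66 in that order. By 24 h the values after the 3 charcoal exposures were 111, 92.1 and 95.8 FPKM for tobacco, 76.8, 91.4 and 95.3 FPKM for herbal shisha and 85.2, 86.7 and 83.8 FPKM for charcoal alone, and none passed the test. SLC38A2 at 2 h had 425, 419 and 314 FPKM after charcoal alone, against 181, 167 and 216 FPKM in the control wells (log2 change 1.03 ± 0.12 (SE; adjusted p = 8.92e-07)). It rose by 0.67 after tobacco shisha on charcoal and by 0.40 after herbal shisha, where the call was lost without control 2 h replicate 2 (adjusted p 0.0758), and changed by 0.19 (adjusted p = 0.24) after the electronic heater. SLC7A11 fell at 2 h after the electronic heater, with 0.846, 1.11 and 0.677 FPKM after tobacco shisha on the electronic heater, against 1.68, 1.56 and 1.6 FPKM in the control wells (log2 change -0.48 ± 0.09 (SE; adjusted p = 0.000115)). The lysosomal proton-coupled transporter SLC36A1 rose after charcoal alone (0.43), herbal shisha (0.33) and tobacco shisha on charcoal (0.19), and fell by 0.21 after the electronic heater. SLC7A5 rose weakly at 2 h after charcoal alone (0.28; adjusted p up to 0.113, without control 2 h replicate 3) and after tobacco shisha on charcoal (0.25; up to 0.154, without tobacco shisha on charcoal replicate 2), calls that were lost under 7 alternatives each.

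**Figure D2:**
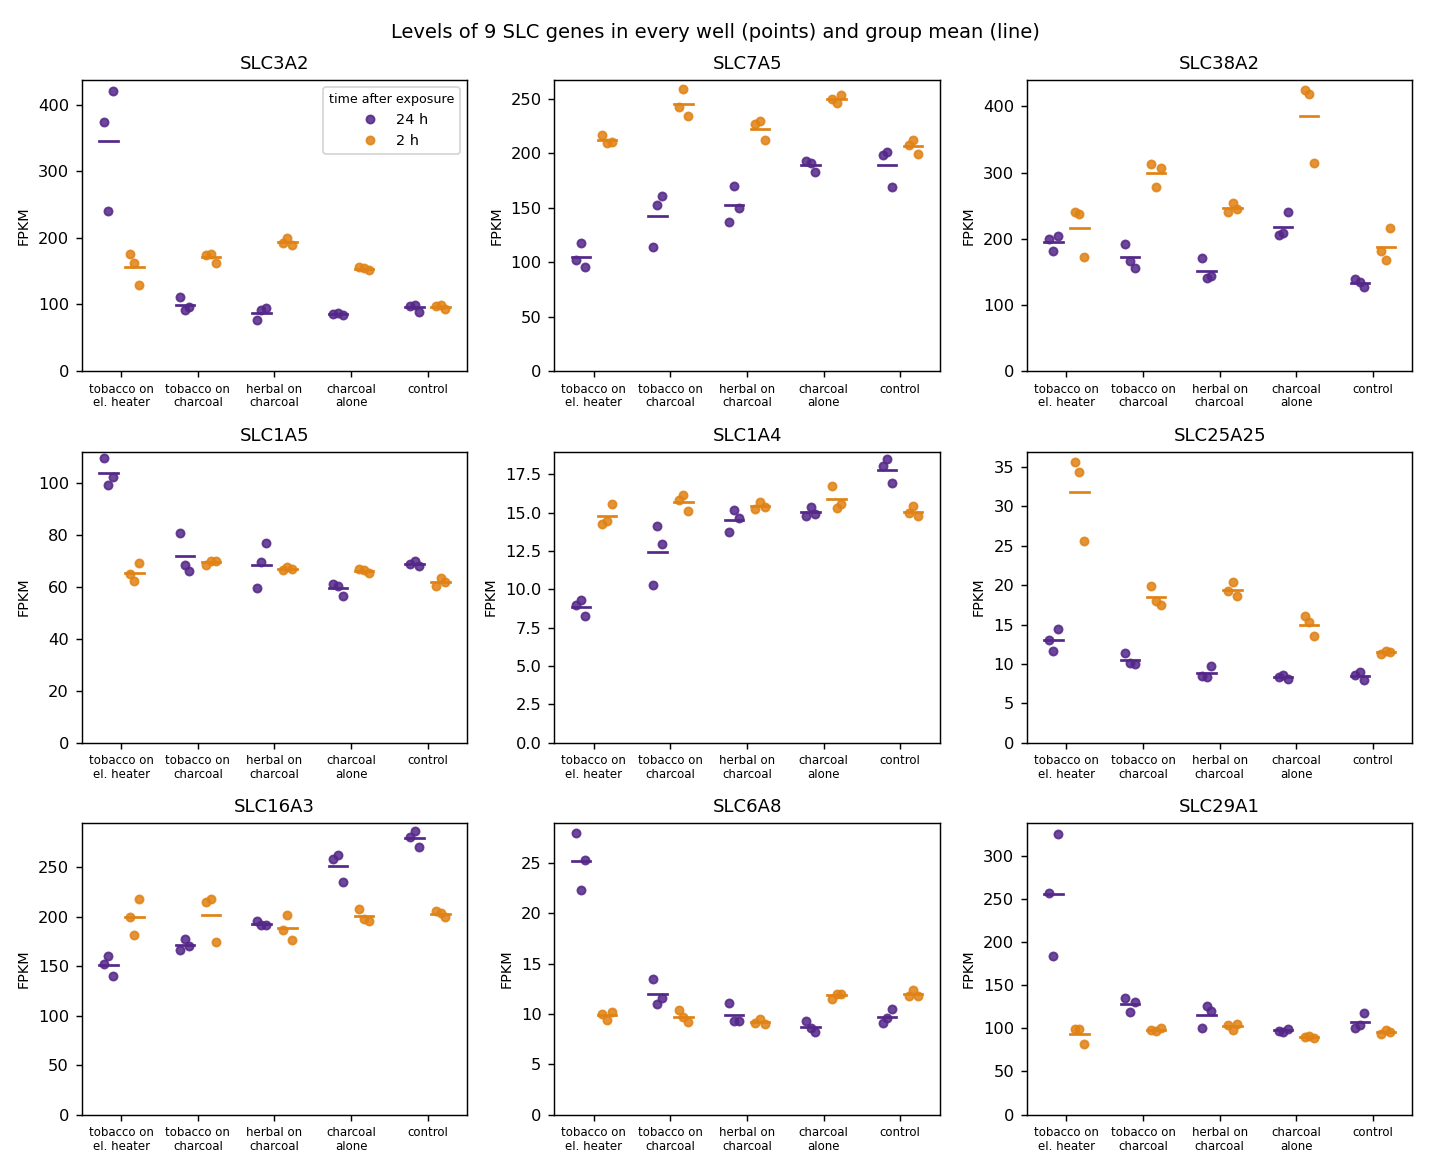
FPKM of 9 SLC genes in each well (points) with the group mean (line), by exposure and control, with 24 h in purple left of 2 h in orange. SLC3A2, SLC6A8 and SLC29A1 stand highest in the 24 h wells of the electronic heater (SLC3A2 at 241 to 420 FPKM), SLC1A4 and SLC16A3 lowest there, and SLC25A25 highest in its 2 h wells.

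Of 8 SLC genes listed as targets of the transcription factor ATF4, the regulator of the amino acid response, 7 were among the members. The other, SLC7A1, was not listed in the data, so its level is not known, and neither was ATF4 itself. The all-gene shares given with the counts at each time (34.3% higher and 29.5% lower after the electronic heater at 24 h) apply to these counts too. Of the 7, 3 rose (SLC3A2, SLC1A5, SLC38A2) and 3 fell (SLC7A5, SLC1A4, SLC6A9) 24 h after the electronic heater, with a median log2 change of -0.09. After charcoal alone at 24 h 2 rose and 3 fell (6.05% and 3.82% of all genes). After herbal shisha none rose and 2 fell (16.5% and 10.4%), and after tobacco shisha on charcoal 1 rose and 2 fell (25.9% and 18.6%). The 24 h calls of SLC1A4, SLC1A5 and SLC6A9 after charcoal alone were each lost under some alternatives. So were those of SLC7A5 after herbal shisha and SLC38A2 after tobacco shisha on charcoal. At 2 h 1 rose and 1 fell after the electronic heater (9.27% and 24.8% of all genes). After tobacco shisha on charcoal 3 rose (8.5%), after herbal shisha 2 (10.6%) and after charcoal alone 3 (8.16%). None fell after the charcoal exposures, where 26.7%, 27.7% and 16.2% of all genes fell in that order. The 2 h calls of SLC7A5 after tobacco shisha on charcoal and charcoal alone, and of SLC38A2 after herbal shisha, were lost under some alternatives. Beside the listed SLC genes, the asparagine synthetase gene ASNS changed at 24 h by -1.42 after the electronic heater and -0.94 after tobacco shisha on charcoal. It changed by -0.10 after herbal shisha (adjusted p = 0.8) and -1.98 after charcoal alone. PSAT1 changed at 24 h by -0.89, -0.36, 0.16 (adjusted p = 0.415) and -1.21 in the same order. CHAC1, a glutathione-degrading enzyme gene, rose at 2 h by 1.64, 1.22, 1.43 and 0.67 in the same order. At 24 h CHAC1 changed by -1.02 after charcoal alone and did not pass the test after the other exposures. In control wells CHAC1 was higher at 24 h than at 2 h by 1.27. GCLM, a subunit of the first enzyme of glutathione synthesis, rose at 24 h by 0.97 after the electronic heater, 0.75 after tobacco shisha on charcoal and 0.76 after herbal shisha. Its 24 h change after charcoal alone was 0.17 (adjusted p = 0.283). At 2 h GCLM rose by 0.46 after tobacco shisha on charcoal, 0.59 after herbal shisha and 0.42 after charcoal alone. Its 2 h change after the electronic heater was 0.004 (adjusted p = 0.98).

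The lactate transporters SLC16A3 and SLC16A1 changed in opposite directions at 24 h after the 3 shisha exposures. SLC16A3, the lactate exporter of glycolytic cells, had 152, 159.9 and 140.2 FPKM after the electronic heater, 166, 177 and 171 FPKM after tobacco shisha on charcoal, 195, 191 and 192 FPKM after herbal shisha and 258, 262 and 235 FPKM after charcoal alone, against 281, 287 and 271 FPKM in control wells. All exposed wells were below the control wells. It fell by 0.89, 0.70 and 0.53 on the log2 scale after the 3 shisha exposures in that order, and its change after charcoal alone was -0.15 (adjusted p = 0.203). SLC16A1, the more widely expressed lactate and pyruvate transporter, rose by 0.52, 0.21 and 0.22 after the same 3 exposures, to 41.4, 36.6 and 44.6 FPKM after the electronic heater, against 28.3, 27.6 and 28.7 FPKM in control wells. BSG, the chaperone of both lactate transporters, fell by 0.20 after tobacco shisha on charcoal and by 0.19 after herbal shisha. At 2 h SLC16A3 did not pass the test after any exposure, with changes between -0.11 and -0.01, while SLC16A1 rose after tobacco shisha on charcoal (0.23), herbal shisha (0.31) and charcoal alone (0.19; lost without control 2 h replicate 3, adjusted p 0.0598, and without charcoal alone replicate 1, 0.0587).

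SLC5A10, which encodes a sodium-coupled transporter of mannose and fructose, had the largest rise of any SLC gene at 2 h after charcoal alone. It had 13.5, 12.1 and 8.96 FPKM after the electronic heater, 21.5, 21.6 and 20.8 FPKM after tobacco shisha on charcoal, 23.2, 22.2 and 19.4 FPKM after herbal shisha and 29.8, 28.9 and 26.03 FPKM after charcoal alone, against 9.3, 10.1 and 9.99 FPKM in control wells. The 3 charcoal groups lay above the control wells and the electronic heater group overlapped them. The log2 changes were 1.44 ± 0.11 (SE; adjusted p = 1.61e-09) after charcoal alone, 1.06 after herbal shisha, 1.05 after tobacco shisha on charcoal and 0.20 (adjusted p = 0.192) after the electronic heater. At 24 h the rise was 0.83 after the electronic heater, with 16.4, 13.5 and 16.3 FPKM after tobacco shisha on the electronic heater, against 8.21, 7.81 and 8.52 FPKM in the control wells, and 0.41 after tobacco shisha on charcoal, a call lost without tobacco shisha on charcoal replicate 1 (adjusted p 0.0543). The strand setting of the quantification is not given in the sources used here, and SLC5A10 shares 1472 exon bases with GRAP and 529 with FAM83G on the opposite strand, so reads of these genes cannot be told apart. In all, 66 of the 134 SLC genes share exon bases with another gene, among them SLC7A11 (865 bases with its antisense gene SLC7A11-AS1), SLC1A5 (780 with AC008622.2), SLC16A3 (482 with CSNK1D), SLC7A5 (271 with AC126696.2) and SLC46A1 (4421 with SARM1), all on opposite strands. SLC2A8, an intracellular hexose transporter, rose at 24 h by 0.57, 0.50 and 0.48 after electronic heater, tobacco on charcoal and herbal shisha, and SLC45A3, of a family of sugar transporters, by 0.99, 0.73 and 0.38. In the other sugar transporters SLC2A10 fell by 0.53 at 24 h after the electronic heater, and SLC2A13 did not pass the test at 24 h.

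The monocarboxylate family also held SLC16A6 and SLC16A13, for which no substrate is given here, and both differed from control wells at 2 h. SLC16A6 had 0.923, 1.21 and 1.21 FPKM after tobacco shisha on charcoal, 1.62, 1.45 and 1.83 FPKM after herbal shisha and 0.739, 0.696 and 1.22 FPKM after charcoal alone, against 0.0639, 0.0875 and 0.116 FPKM in control wells. It reached 1 FPKM in 6 libraries, all exposed wells at 2 h, so it was included only through the groups in which it is high and its rises are given as a description. SLC16A13 had 2.97, 3.42 and 4.52 FPKM after the electronic heater, 3.94, 3.54 and 4.0002 FPKM after tobacco shisha on charcoal, 3.59, 3.95 and 4.03 FPKM after herbal shisha and 4.33, 3.65 and 4.09 FPKM after charcoal alone, against 5.18, 6.34 and 6.16 FPKM in control wells. All exposed wells were lower than the control wells, and it fell by 0.58, 0.51, 0.50 and 0.45 in that order. At 24 h no change of SLC16A13 passed the test.

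Of the 27 mitochondrial carriers, 8 rose and 9 fell 24 h after the electronic heater, 10 rose and 1 fell after tobacco shisha on charcoal, and 8 rose and none fell after herbal shisha. Of all genes 34.3% rose and 29.5% fell after the electronic heater, 25.9% and 18.6% after tobacco shisha on charcoal, 16.5% and 10.4% after herbal shisha and 6.05% and 3.82% after charcoal alone. After charcoal alone 2 carriers rose (SLC25A42 and SLC25A44) and 1 fell (SLC25A14). SLC25A38, which supplies glycine for heme synthesis, had 20.7, 19.7 and 22.4 FPKM after tobacco shisha on the electronic heater, against 9.89, 10.0002 and 10.1 FPKM in the control wells (log2 change 0.99 ± 0.08 (SE; adjusted p = 2.37e-10)). SLC25A20, the carnitine-acylcarnitine carrier of fatty acid oxidation, had 9.61, 9.8 and 9.81 FPKM after tobacco shisha on the electronic heater, against 5.47, 5.75 and 5.51 FPKM in the control wells (log2 change 0.71 ± 0.08 (SE; adjusted p = 3.11e-08)). Both also rose after tobacco shisha on charcoal (SLC25A38 by 0.55, SLC25A20 by 0.60) and after herbal shisha (0.34 and 0.44). SLC25A44, a branched-chain amino acid carrier, rose after all 4 exposures, by 0.63, 0.35, 0.20 and 0.24. SLC25A24, an ATP-Mg/phosphate carrier, had 20.9, 24.1 and 22.8 FPKM after tobacco shisha on the electronic heater, against 41.03, 38.2 and 40.96 FPKM in the control wells, and fell by 0.80 on the log2 scale (adjusted p = 4.57e-12). The citrate carrier SLC25A1 fell by 0.33 after the electronic heater and the phosphate carrier SLC25A3, the highest SLC gene, by 0.13, a call lost under 3 alternatives (adjusted p up to 0.0553, without electronic heater replicate 3).

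At 2 h after the electronic heater 5 mitochondrial carriers rose and 1 fell, where 9.27% of all genes rose and 24.8% fell, or 10 and 1 with median-of-ratios scaling. SLC25A25, an ATP-Mg/phosphate carrier that responds to calcium, had 35.6, 34.3 and 25.6 FPKM after the electronic heater, 19.9, 18.02 and 17.5 FPKM after tobacco shisha on charcoal, 19.3, 20.4 and 18.6 FPKM after herbal shisha and 16.1, 15.3 and 13.6 FPKM after charcoal alone, against 11.3, 11.6 and 11.5 FPKM in control wells. The electronic heater wells were the highest and no exposed group overlapped the control wells. The log2 changes were 1.38 ± 0.09 (SE; adjusted p = 9.98e-11) for the electronic heater, 0.64 for tobacco shisha on charcoal, 0.71 for herbal shisha and 0.35 for charcoal alone. SLC25A25 shares 665 exon bases with its antisense gene SLC25A25-AS1. SLC25A32, the mitochondrial folate and FAD carrier, rose by 0.77 after herbal shisha. SLC25A29, a basic amino acid carrier, fell by 0.62 after herbal shisha, with 6.61, 8.03 and 6.49 FPKM after herbal shisha on charcoal, against 11.7, 10.5 and 11.9 FPKM in the control wells. SLC25A42, the coenzyme A carrier, fell at 2 h by 0.37 after tobacco shisha on charcoal and by 0.37 after herbal shisha, and by 0.28 after charcoal alone, a call lost under 6 alternatives (adjusted p up to 0.0872, without charcoal alone replicate 3), and rose at 24 h after tobacco shisha on charcoal (0.40).

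Among the 12 SLC35 genes 6 rose and none fell at 24 h after tobacco shisha on charcoal, and likewise 6 and none after herbal shisha; with median-of-ratios scaling the counts were 5 and 0 and 4 and 1. Of all genes 25.9% rose and 18.6% fell after tobacco shisha on charcoal, and 16.5% and 10.4% after herbal shisha. After the electronic heater 5 rose and 3 fell, where 34.3% of all genes rose and 29.5% fell. SLC35F2, a member with no substrate given here, had 28.99, 26.4 and 26.9 FPKM after tobacco shisha on the electronic heater, against 12.1, 11.5 and 12.1 FPKM in the control wells (log2 change 1.14 ± 0.11 (SE; adjusted p = 7.52e-09)). It rose by 0.82 after tobacco shisha on charcoal and by 0.42 after herbal shisha, where the call was lost without herbal shisha on charcoal replicate 3 (adjusted p 0.0566). SLC35B1, which brings ATP into the endoplasmic reticulum, rose by 0.41, 0.52 and 0.30 after electronic heater, tobacco on charcoal and herbal shisha. SLC35E4 was the SLC35 gene with the most change at 2 h, with 9.73, 7.43 and 6.59 FPKM after the electronic heater, 8.53, 8.91 and 8.28 FPKM after tobacco shisha on charcoal, 10.6, 10.97 and 10.04 FPKM after herbal shisha and 9.41, 9.16 and 10.8 FPKM after charcoal alone, against 5.01, 5.17 and 4.85 FPKM in control wells. No exposed group overlapped the control wells, and log2 changes were 0.55, 0.67, 0.94 and 0.84. It shares 1530 exon bases with DUSP18 on the opposite strand.

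**Figure D3:**
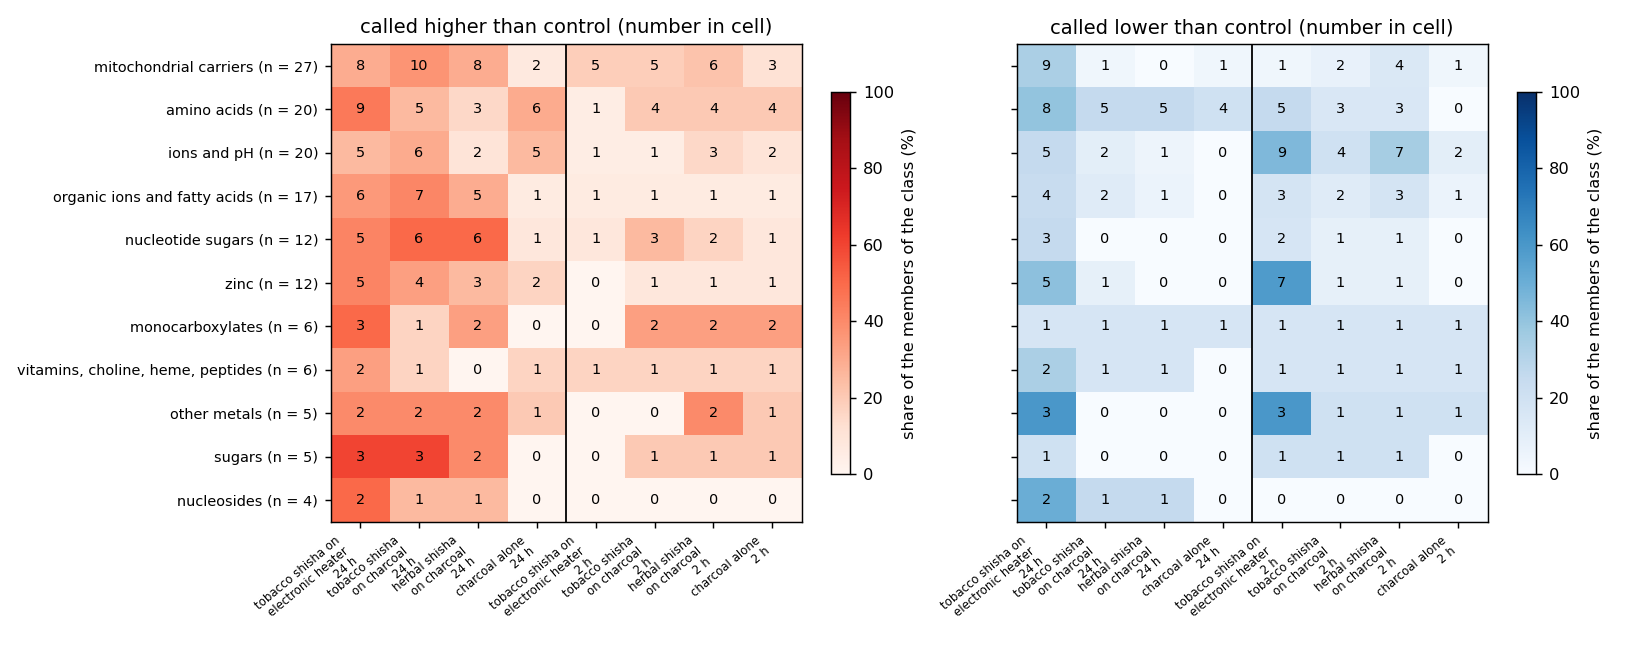
Number of SLC genes of each transport class that rose (left panel) or fell (right panel) against control wells, with colour giving the share of the class in percent, by exposure at 24 h and 2 h. At 24 h after the electronic heater, amino acid transporters stand at 9 up and 8 down and mitochondrial carriers at 8 up and 9 down, while at 2 h the zinc class stands at 0 up and 7 down.

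Zinc transporters were split at 24 h after the electronic heater, where 5 of 12 rose and 5 fell, and none rose and 7 fell at 2 h (6 with median-of-ratios scaling). Of all genes 34.3% rose and 29.5% fell at 24 h, and 9.27% rose and 24.8% fell at 2 h. SLC39A14, an importer of zinc, iron and manganese, rose at 24 h after all 4 exposures, with 27.7, 26.4 and 28.04 FPKM after the electronic heater, 27.6, 24.6 and 22.8 FPKM after tobacco shisha on charcoal, 21.3, 20.6 and 22.6 FPKM after herbal shisha and 21.4, 21.4 and 21.7 FPKM after charcoal alone, against 17.8, 17.8 and 16.6 FPKM in control wells. The groups did not overlap the control wells, and log2 changes were 0.63, 0.50, 0.29 and 0.29. SLC39A8, its relative, fell by 0.62 after the electronic heater at 24 h (lost without electronic heater replicate 1, adjusted p 0.0872) and by 0.56 at 2 h, a call lost under 6 alternatives (adjusted p up to 0.15, without electronic heater replicate 3). SLC30A7, which loads zinc into the secretory pathway, fell by 0.47 at 2 h and rose by 0.37 at 24 h after the electronic heater. SLC30A6, of the same pathway, fell by 0.37 and rose by 0.39 at the same times. The metallothionein gene MT2A, which encodes a zinc-binding protein, fell at 24 h by 0.66 after the electronic heater and by 0.54 after charcoal alone. MT1X, another metallothionein gene, did not pass the test at 24 h after any exposure. Its 24 h changes were -0.15 (adjusted p = 0.173) after the electronic heater and -0.27 (adjusted p = 0.0658) after charcoal alone. At 2 h MT1X rose by 0.32 after the electronic heater, 0.45 after herbal shisha and 0.29 after charcoal alone.

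Of the 5 transporters of other metals, SLC31A1, the copper importer, and SLC31A2 rose at 24 h after the electronic heater (SLC31A1 by 0.47, SLC31A2 by 0.33), and SLC40A1, the iron exporter ferroportin, SLC11A2, an iron importer, and SLC41A3 fell (SLC40A1 by 0.37, SLC11A2 by 0.16, SLC41A3 by 0.63). In that comparison 63.8% of all genes passed, 34.3% higher and 29.5% lower. The SLC11A2 call was lost under 5 alternatives, with an adjusted p of up to 0.13 without electronic heater replicate 1. SLC40A1 fell at 2 h after every exposure. It had 0.71, 0.735 and 0.645 FPKM after the electronic heater, 0.637, 0.713 and 0.74 FPKM after tobacco shisha on charcoal, 0.647, 0.531 and 0.724 FPKM after herbal shisha and 0.84, 0.49 and 0.827 FPKM after charcoal alone, against 1.3, 1.21 and 1.02 FPKM in control wells. All exposed wells were below the control wells, and the falls were 0.36, 0.36, 0.41 and 0.34 in that order. The call after charcoal alone was lost without charcoal alone replicate 2 (adjusted p 0.0783).

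Of the 20 transporters of ions and pH, 5 rose and 5 fell at 24 h after the electronic heater, and 1 rose and 9 fell at 2 h, or 2 and 7 with median-of-ratios scaling, beside the same all-gene shares (34.3% and 29.5% at 24 h, 9.27% and 24.8% at 2 h). SLC4A7, a sodium-bicarbonate cotransporter, had 1.69, 2.1 and 1.33 FPKM after tobacco shisha on the electronic heater, against 3.02, 2.996 and 2.81 FPKM in the control wells at 2 h and fell by 0.55 on the log2 scale. At 24 h it had 4.47, 3.69 and 5.14 FPKM after tobacco shisha on the electronic heater, against 3.11, 3.06 and 2.98 FPKM in the control wells, a rise of 0.41. SLC26A2, a sulfate transporter, fell after the electronic heater at both times, by 0.51 at 24 h and 0.46 at 2 h. The phosphate transporter SLC20A2 rose at 2 h and not at 24 h after charcoal alone, with 4.99, 8.13 and 7.27 FPKM after charcoal alone, against 1.9, 2.49 and 1.85 FPKM in the control wells at 2 h (log2 change 1.32 ± 0.19 (SE; adjusted p = 9.86e-06)). Charcoal alone at 2 h had the highest wells of this gene. It rose also after tobacco shisha on charcoal (0.69) and after herbal shisha (0.63; lost without herbal shisha on charcoal replicate 1, adjusted p 0.0604), and its 24 h change after charcoal alone was -0.20 (adjusted p = 0.591). SLC12A8, of the cation-chloride cotransporter family, was the fourth largest rise after charcoal alone at 24 h (0.57), a call lost without control 24 h replicate 3 (adjusted p 0.0889) and without charcoal alone replicate 1 (0.0719).

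All 4 nucleoside transporters passed the test at 24 h after the electronic heater, 2 rising and 2 falling, where 63.8% of all genes passed. SLC29A1, the main equilibrative transporter, had 257, 184 and 325 FPKM after tobacco shisha on the electronic heater, against 101, 104 and 118 FPKM in the control wells (log2 change 1.21 ± 0.12 (SE; adjusted p = 1.41e-08)). The lowest exposed well was well above the highest control well. SLC29A3, its lysosomal relative, rose by 0.50, while SLC29A2 fell by 0.53 and SLC29A4 by 0.43. SLC29A2 fell also after tobacco shisha on charcoal (-0.42) and herbal shisha (-0.40), with 0.996, 1.72 and 1.41 FPKM and 1.83, 1.15 and 1.25 FPKM, against 2.24, 2.12 and 2.11 FPKM in control wells. No nucleoside transporter passed the test at 2 h after any exposure.

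Vitamin and peptide transporters changed in both directions. The thiamine transporter SLC19A2 rose at 2 h after tobacco shisha on charcoal (0.58), herbal shisha (0.87) and charcoal alone (0.61), with 7.04, 7.45 and 6.97 FPKM after herbal shisha on charcoal, against 3.26, 3.65 and 3.47 FPKM in the control wells for the second of these. The riboflavin transporter SLC52A2 rose at 24 h by 0.75 after the electronic heater and 0.58 after tobacco shisha on charcoal; its 2 h rise after the electronic heater (0.27) was lost under 5 alternatives (adjusted p up to 0.173, without control 2 h replicate 1). SLC44A2, a choline transporter-like protein, fell by 0.52 at 24 h after the electronic heater, with 62.9, 74.2 and 62.5 FPKM after tobacco shisha on the electronic heater, against 97.2, 94.2 and 94.7 FPKM in the control wells. SLC15A4, a lysosomal transporter of peptides and histidine, fell at 24 h after the electronic heater (by 0.40), tobacco shisha on charcoal (by 0.28) and herbal shisha (by 0.34). The folate transporter SLC46A1 had 1.66, 3.79 and 1.63 FPKM at 2 h after tobacco shisha on charcoal, against 4.93, 5.47 and 5.47 FPKM in control wells, a log2 change of -0.96 ± 0.15 (SE; adjusted p = 1.66e-05) that rested on 2 wells at a lower level than the other. SLC46A3, a lysosomal transporter, fell at 2 h after charcoal alone by 0.32, a call lost with median-of-ratios scaling (adjusted p 0.0997) and without 4 single wells (up to 0.104, without charcoal alone replicate 1).

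In the families of organic ion and fatty acid transporters 6 of 17 genes rose and 4 fell at 24 h after the electronic heater (34.3% and 29.5% of all genes). After tobacco shisha on charcoal 7 rose and 2 fell (25.9% and 18.6% of all genes), or 3 and 2 with median-of-ratios scaling. SLC27A2, which activates and imports very long chain fatty acids, had 2.14, 4.05 and 2.83 FPKM after tobacco shisha on the electronic heater, against 8.97, 10.5 and 7.52 FPKM in the control wells, and fell by 1.33 on the log2 scale (adjusted p = 5.2e-08). It was the largest fall of the 134 genes there. SLC27A4, another fatty acid transporter of the same family, rose by 0.40. SLC13A3, a dicarboxylate transporter, had 8.93, 8.45 and 9.46 FPKM after tobacco shisha on the electronic heater, against 5.02, 4.78 and 5.1 FPKM in the control wells (log2 change 0.74 ± 0.08 (SE; adjusted p = 1.95e-08)). SLC37A4, the glucose phosphate transporter of the endoplasmic reticulum, had 12.4, 13.6 and 12.7 FPKM after tobacco shisha on the electronic heater, against 22.2, 22.3 and 23.7 FPKM in the control wells, and fell by 0.77 (adjusted p = 3.81e-09). SLC17A5, the lysosomal sialic acid exporter, fell at 2 h after the electronic heater (by 0.44), tobacco shisha on charcoal (by 0.40) and herbal shisha (by 0.37), and rose at 24 h after the electronic heater (0.39).

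**Figure D4:**
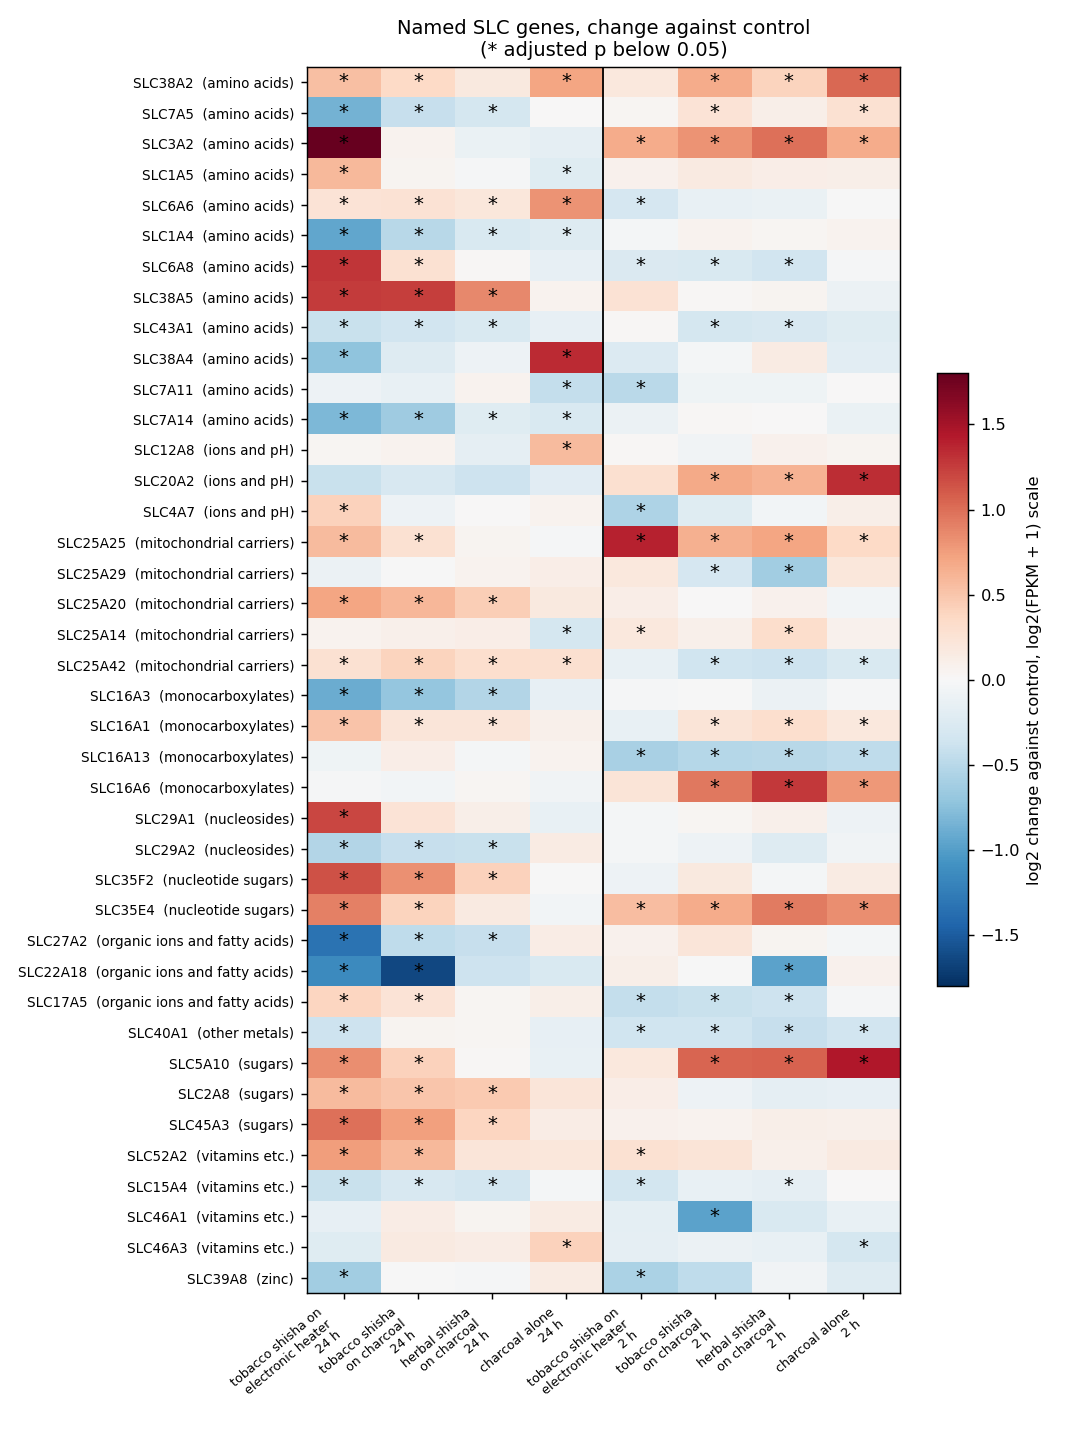
Log2 change against control wells (red higher, blue lower, star for adjusted p below 0.05) of SLC genes named by the rule, grouped by class, with 24 h columns left of 2 h columns. SLC16A6 passed the expression rule only through exposed wells at 2 h, so its stars there carry no weight. The 24 h column of the electronic heater runs from SLC3A2 at 1.81 to SLC27A2 at -1.33.

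A few SLC genes were listed at 0 in some wells or stood at separate levels among the wells of a group, and folds for them mean little. SLC22A18 was listed at 0.834, 1.16 and 0 FPKM after tobacco shisha on charcoal and 0.397, 2.09 and 1.56 FPKM after the electronic heater at 24 h, against 4.19, 3.92 and 3.74 FPKM in control wells, and both passed the test; the electronic heater call was lost without its replicate 1 (adjusted p 0.0543) and with a pseudocount of 0.1 (0.0897). At 2 h after herbal shisha it was listed at 2.8, 0 and 2.39 FPKM, against 3.81, 3.61 and 3.36 FPKM in control wells, and the call there was lost without the well at 0 (adjusted p 0.307), without any 1 control well (0.053 to 0.0712), with a pseudocount of 0.1 (0.0712) and with no filter (0.0503). SLC27A3 was listed at 0 in 25 of the 30 libraries, and at 2.63, 2.33 and 0 FPKM after herbal shisha at 24 h, 0, 2.4 and 0 FPKM after herbal shisha at 2 h and 0, 2.92 and 2.18 FPKM in the 2 h control wells, so no fold is given for it. SLC39A7, a zinc transporter, and SLC43A2, an amino acid transporter, were listed at 0 in 11 and 5 of the 30 libraries, SLC39A7 first, and passed no test against control. These 4 genes had several rows under their name, 4 for SLC39A7 and 2 for each of the others. Only the row with the highest mean is given. A 0 is therefore the value of that row and does not show that the gene was absent from the well. SLC38A1, a neutral amino acid transporter, had 21.97, 5.03 and 24.4 FPKM after charcoal alone at 2 h and did not pass the test in any comparison with control.

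Between 24 h and 2 h in control wells 32 SLC genes changed, 11 higher and 21 lower at 24 h (23.9% of members), where 16.9% of all genes passed, 7.44% higher and 9.44% lower. These changes are part of every comparison between times. SLC16A3 had 281, 287 and 271 FPKM at 24 h, against 206, 204 and 199 FPKM at 2 h, a log2 change of 0.46 ± 0.07 (SE; adjusted p = 8.64e-05). The groups did not overlap, and the glycolytic gene HK2 was higher at 24 h as well, by 1.44. SLC38A4 fell by 0.74, with 1.67, 1.73 and 1.38 FPKM at 24 h and 3.25, 2.87 and 3.95 FPKM at 2 h. The taurine transporter SLC6A6 fell by 0.60, with 10.7, 11.3 and 10.2 FPKM at 24 h and 16.4, 15.5 and 18.5 FPKM at 2 h. These were the genes with the 2 largest rises after charcoal alone at 24 h. SLC38A2 fell by 0.49, a call lost without control 2 h replicate 3 (adjusted p 0.0686). SLC39A10 (0.32) and SLC27A1 (0.37) were higher at 24 h, and SLC36A4, a lysosomal amino acid transporter, was lower (-0.44).

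The exposures were also set against each other, at concentrations that need not match. At 24 h tobacco shisha on the electronic heater differed from tobacco shisha on charcoal in 58 SLC genes, 24 higher and 34 lower (43.3% of members), where 47.8% of all genes passed, 22.9% higher and 24.9% lower. SLC3A2 had 374, 241 and 420.3 FPKM on the electronic heater, against 111, 92.1 and 95.8 FPKM on charcoal, a log2 difference of 1.75 ± 0.13 (SE; adjusted p = 2.34e-09). SLC6A8 (1.01) and SLC29A1 (0.95) were also higher on the electronic heater. SLC27A2 (-0.88) and SLC39A11 (-0.79) were lower. At 2 h 32 genes differed, 6 higher and 26 lower on the electronic heater (23.9% of members), where 23.3% of all genes passed, 12.7% higher and 10.6% lower. With median-of-ratios scaling 6 were higher and 31 lower, and over all genes 836 were higher and 1114 lower, where without scaling more were higher. SLC5A10 (-0.85) was lower on the electronic heater at 2 h and SLC25A25 higher (0.74).

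Between herbal shisha on charcoal and charcoal alone 43 SLC genes differed at 24 h, 25 higher and 18 lower with herbal shisha (32.1% of members), where 31.5% of all genes passed, 16.2% higher and 15.3% lower (1289 and 1387 genes with median-of-ratios scaling, and 23 and 19 members). At 2 h 21 genes differed, 9 higher and 12 lower (15.7% of members), where 24.4% of all genes passed, 10.1% higher and 14.3% lower. SLC38A4 was lower at 24 h, with 1.81, 1.5 and 1.06 FPKM after herbal shisha and 5.1, 5.25 and 6.34 FPKM after charcoal alone (log2 difference -1.43 ± 0.12 (SE; adjusted p = 4.99e-08)). SLC38A5 was higher, by 0.80. At 2 h the mitochondrial carrier SLC25A29 was lower, with 6.61, 8.03 and 6.49 FPKM after herbal shisha and 13.7, 15.2 and 10.999 FPKM after charcoal alone (log2 difference -0.82 ± 0.10 (SE; adjusted p = 4.87e-06)). Tobacco and herbal shisha on charcoal were much closer: 10 SLC genes differed at 24 h, 7 higher and 3 lower with tobacco (7.46% of members), where 5.12% of all genes passed, 2.41% higher and 2.71% lower, and 1 at 2 h, where 0.61% passed, 0.305% each way. That gene was SLC46A1, which was lost as a call without any 1 of 4 wells (adjusted p 0.106 to 0.141), and 17 SLC genes had an unadjusted p below 0.05. SLC7A14, an SLC7 member with no substrate given here, was lower with tobacco at 24 h (-0.42), and it was the 1 gene of the 10 called under every alternative. The 24 h count was 1 without tobacco shisha on charcoal replicate 1, 4 without herbal shisha replicate 1 and 2 without its replicate 2. A p that misses the threshold does not show that the exposures acted alike.

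The effect against control at 24 h differed from that at 2 h for 75 SLC genes with the electronic heater, 47 higher and 28 lower (56% of members), where 57.6% of all genes passed, 34.8% higher and 22.8% lower. For tobacco shisha on charcoal 47 differed, 33 higher and 14 lower (35.1% of members), where 41.1% passed, 30.3% higher and 10.8% lower. For herbal shisha 45 differed, 30 higher and 15 lower (33.6% of members), where 32.3% passed, 24% higher and 8.3% lower. For charcoal alone 31 differed, 15 higher and 16 lower (23.1% of members), where 23.2% passed, 16.2% higher and 7% lower. With median-of-ratios scaling the split was 21 higher and 26 lower for tobacco shisha on charcoal, 14 and 21 for herbal shisha, and 10 and 18 for charcoal alone. Over all genes it was then 1394 and 1508, 1021 and 1174, and 716 and 889 in that order, so the all-gene split turned as well. Without scaling, the median over all genes was 0.13 for tobacco shisha on charcoal and 0.12 for herbal shisha, so directions for small changes in these are relative to that shift. The largest differences with the electronic heater were in SLC6A8 (1.54), SLC29A1 (1.25) and SLC35F2 (1.23), which rose late, and SLC27A2 (-1.41), which fell late. SLC3A2 differed the other way after herbal shisha (-1.12), where it rose at 2 h.

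**Figure D5:**
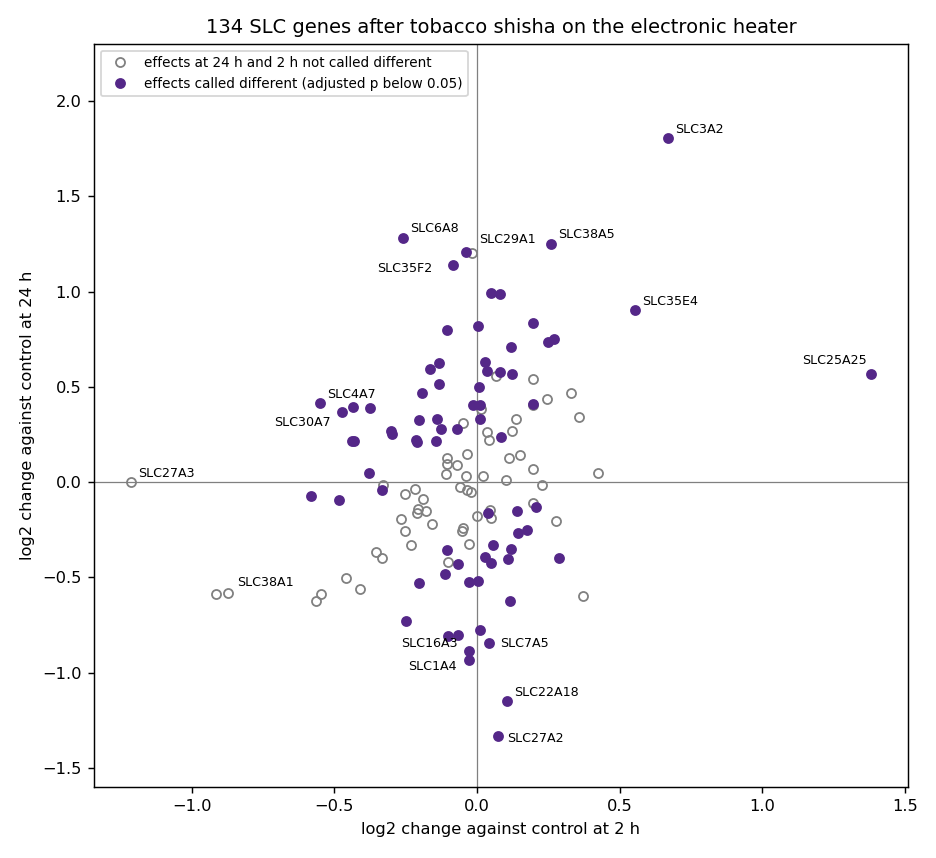
Log2 change against control wells at 24 h (vertical) and 2 h (horizontal) for each of the 134 SLC genes after tobacco shisha on the electronic heater, with filled points for genes whose effects differed between times. SLC3A2 lies high on both axes (1.81 at 24 h, 0.67 at 2 h), and SLC25A25 lies furthest right at 1.38.

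Across the 10 group means of log2(FPKM + 1), the genes most like SLC3A2 were SLC35E4 (Pearson r = 0.881), SLC13A3 (0.879) and SLC25A44 (0.804), those most like SLC7A5 were SLC29A2 (0.918), SLC25A35 (0.885) and SLC27A2 (0.869), and those most like SLC7A11 were SLC35D1 (0.859), SLC38A1 (0.756) and SLC35B4 (0.745). These are descriptions over 10 groups that share libraries and controls.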

How the data were processed

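RNA from 30 wells was sequenced as 50 bp single-end reads (Illumina TruSeq libraries from 1 ug of total RNA), per the labels' protocols and the series' design text. The authors deposited FPKM values, 1 file of 29190 transcript rows per library; per the submitters' processing notes the tools were HISAT2 2.1.0 and StringTie 1.3.4d on hg38. Annotation release, filters and strand setting: not given in the sources used here. A matrix over the whole series was not used. Gene names damaged into dates were recovered for 26 rows and left in 1, and the row with the highest mean was kept for each of 22538 names.

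From there, 8531 genes at 1 FPKM or more in 3 or more libraries were fitted with limma 3.58.1 (trend; R 4.3.3) on log2(FPKM + 1), with 1 mean for each of 10 groups, all 30 libraries and 20 residual degrees of freedom (prior 2.76), and Benjamini-Hochberg adjusted p-values over all of them; calls were made below 0.05. The script was tested on simulated data. FPKM values hold no counts, so depth is unknown and no count test was run. Tables were made with pandas 2.3.3 and numpy 2.4.6 under Python 3.11.15, and plots with matplotlib 3.10.9. Classes follow SLC family numbers.

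Named genes were the 4 largest rises and 4 largest falls of each comparison with control among called members with a mean of 1 FPKM or more in either group and wells that did not overlap, 5 each way for the control wells over time, 3 each way for other comparisons, a short list of amino acid and lactate transporters, and the 5 highest means. Other genes were added by class after their values were seen, as were the likeness lists of SLC3A2 and SLC7A5. Results of 2 members, 1 of them named by the rule, are counted but not reported here by gene. The members and lists were chosen with earlier results of these data known. Alternatives were a replicate block, a pseudocount of 0.1, no filter, median-of-ratios scaling, summing the rows of a name, and leaving out each well; leaving out the members listed at 0 was added after seeing the data. RefSeq promoters on GRCh38.p14 were matched for 107 members by symbol, and 27 had no entry. For 96 of the 107 the window chosen had its start within 500 bases of the start of the listed transcript. Exon overlaps come from a different annotation, GENCODE.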

Additional observations from a re-analysis of the deposited data

Results flagged for a closer look

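The effect against control wells at 24 h was set against the effect at 2 h by an interaction test in the same limma fit. After Benjamini-Hochberg adjustment 75, 47, 45 and 31 SLC genes passed for the electronic heater, tobacco shisha on charcoal, herbal shisha and charcoal alone. Of all genes 57.6%, 41.1%, 32.3% and 23.2% passed in that order. Listed here are the 3 largest differences each way per exposure among the SLC genes that passed. Their number, 24, was set by that rule and is not a result. A positive value means that the log2 change was higher at 24 h. Groups held 3 wells, too few for the test of single outlying wells.

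Tobacco shisha on the electronic heater had the creatine transporter gene SLC6A8 at 1.54, the nucleoside transporter gene SLC29A1 at 1.25 and SLC35F2 at 1.23, and the fatty acid transporter gene SLC27A2 at -1.41, SLC22A18 at -1.26 and SLC1A4 at -0.90. The first 3 rose at 24 h, by 1.28, 1.21 and 1.14. At 2 h SLC6A8 fell (-0.26), and the changes of SLC29A1 (-0.04) and SLC35F2 (-0.09) did not pass the test. The SLC22A18 difference was lost under 6 alternatives (adjusted p 0.208 with a pseudocount of 0.1, 0.0544 with no filter, and 0.053 to 0.11 without any 1 of 4 wells). SLC22A18 had a well at 0.397 FPKM in this group at 24 h.

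Tobacco shisha on charcoal had the amino acid transporter gene SLC38A5 at 1.22, the folate transporter gene SLC46A1 at 1.09 and the coenzyme A carrier gene SLC25A42 at 0.77, and SLC22A18 at -1.64, SLC16A6 at -1.0 and the phosphate transporter gene SLC20A2 at -0.98. SLC46A1 had 1.66, 3.79 and 1.63 FPKM at 2 h, and SLC22A18 was listed at 0 in 1 well at 24 h, its difference being lost with a pseudocount of 0.1 (adjusted p 0.0547). SLC16A6 passed the expression rule only through exposed wells at 2 h, so its values here and after herbal shisha are a description and not a tested result.

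Herbal shisha on charcoal had SLC27A3 at 1.82, a fitted value that gives no fold, since each of the 4 groups behind it had wells listed at 0 and the difference was lost under 7 alternatives (adjusted p 0.0504 to 0.0888), SLC38A5 at 0.82 and SLC25A29 at 0.68, and SLC16A6 at -1.23, SLC3A2 at -1.12 and SLC5A10 at -1.05.

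Charcoal alone had the neutral amino acid transporter gene SLC38A4 at 1.52, the taurine transporter gene SLC6A6 at 0.80 and SLC46A3 at 0.74, and SLC5A10 at -1.57, SLC20A2 at -1.52 and SLC35E4 at -0.90. The last 3 rose at 2 h, by 1.44, 1.32 and 0.84, and their 24 h changes of -0.14, -0.20 and -0.05 did not pass the test.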

How the results depend on the processing

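Each of the 19 counts of called SLC genes was recomputed under 5 alternatives and with each well left out. Without the filter on low values the count between tobacco and herbal shisha on charcoal at 24 h was 6 in place of 10. Leaving out 1 well at a time gave 27 to 40 genes for herbal shisha on charcoal at 24 h (44 with all wells; 27 without herbal replicate 3, 28 without control replicate 2), 1 to 13 for tobacco against herbal shisha at 24 h and 0 to 1 at 2 h; every other count stayed within 1.5 times its value. Leaving out the members listed at 0, chosen after seeing the data, lowered each count by 1 at most. The replicate numbers did not pair the wells: deviations of same-numbered wells had correlations of -0.107 to 0.231, over 0.1 in 6 of 60 pairs, and a replicate block gave 94 genes for the electronic heater at 24 h, 58 for tobacco and 43 for herbal shisha on charcoal and 22 for charcoal alone, and 45, 36, 46 and 24 at 2 h. Of 2069 alternative values of 175 named results, 1910 kept direction and side of the threshold, 140 lost the call, 4 gained it and 15 changed sign, all in changes that had not passed the test; the cause was not tested. The sign changes came from median-of-ratios scaling for SLC16A3 at 2 h (0.04 electronic heater, 0.09 tobacco on charcoal, 0.07 charcoal alone) and for SLC7A5 at 24 h after charcoal alone (-0.02), and otherwise from left-out wells. The ranges over left-out wells were, at 2 h, -0.09 to 0.04 for SLC16A3 after the electronic heater, -0.07 to 0.09 for SLC16A3 after tobacco shisha on charcoal and -0.003 to 0.03 for SLC7A11 after charcoal alone. At 24 h they were -0.02 to 0.12 for SLC3A2 and -0.03 to 0.11 for SLC1A5 after tobacco shisha on charcoal, -0.03 to 0.16 for SLC7A11 and -0.10 to 0.08 for SLC1A5 after herbal shisha, and -0.08 to 0.05 for SLC7A5 after charcoal alone. Depth is unknown from FPKM, so how far it limits the low genes cannot be given.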

Other observations

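The following SLC genes were picked after their values were seen, and SLC1A3 was also named by rule between herbal shisha and charcoal alone. SLC1A3, a glutamate transporter, had 0.366, 0.384 and 0.36 FPKM after the electronic heater, 0.246, 0.203 and 0.33 FPKM after tobacco shisha on charcoal, 0.599, 0.465 and 0.268 FPKM after herbal shisha and 1.31, 1.8 and 1.43 FPKM after charcoal alone at 24 h, against 1.05, 0.899 and 0.79 FPKM in control wells. Its log2 changes were -0.48, -0.60, -0.41 and 0.39 in that order, and the rise after charcoal alone was lost without charcoal alone replicate 2 (adjusted p 0.0626). Herbal shisha and charcoal alone differed by -0.80 ± 0.09 (SE; adjusted p = 1.34e-06).

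SLC30A3, a zinc transporter of vesicles, had 2.34, 1.76 and 2.49 FPKM after tobacco shisha on the electronic heater, against 0.661, 0.827 and 0.943 FPKM in the control wells at 24 h (log2 change 0.82 ± 0.13 (SE; adjusted p = 1.07e-05)). SLC10A4, an orphan member of the bile acid transporter family, had 2.08, 1.85 and 2.05 FPKM after tobacco shisha on the electronic heater, against 0.904, 0.63 and 0.641 FPKM in the control wells (log2 change 0.80 ± 0.10 (SE; adjusted p = 2.74e-07)). In both genes the exposed wells lay above the control wells. SLC4A8, a sodium-driven bicarbonate exchanger, changed at 24 h by -0.56 after the electronic heater and rose after charcoal alone by 0.35.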
